A study of Bos taurus and Ovis aries and Capra hircus with 9 samples.

Results

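Haptoglobin, the product of HP, is a plasma glycoprotein that hepatocytes secrete and that binds free hemoglobin released from red cells. The complex is taken up by the macrophage receptor CD163, which limits oxidative damage and the loss of iron. In cattle, sheep, and goats haptoglobin is a classical acute phase protein: interleukin 6, acting through STAT3 and C/EBP factors, drives its transcription in the liver, and its level in serum is low in healthy animals and rises steeply with infection or injury. The question here was how much HP RNA each liver held, how far the animals of 1 species differed, and whether 1 library stood out.

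Liver RNA of 3 Holstein cattle (3 to 4 years old), 3 Texel sheep (2 to 3 years old), and 3 Yunnan black goats (2 to 3 years old) was sequenced, with 1 library per animal, named A, B, and C in each species. All animals were adult and described as healthy in the study's methods. Because each species was represented by 1 breed, mapped to its own genome, and counted on its own annotation, species, breed, and gene model cannot be told apart. The cattle gene was ENSBTAG00000006354, 1 of 27607 annotated cattle genes, on chromosome 18 (39037402 to 39043531, minus strand, ARS-UCD1.2). In the RefSeq table of ARS-UCD2.0, HP is also a single gene on chromosome 18, between TXNL4B and DHODH. Its counterpart in each other species was sought by the ordered lengths of internal exons.

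In goats, ENSCHIG00000026069 (chromosome 18, 40244495 to 40250745, minus strand, ARS1) was the reciprocal best match, with 5 of 6 internal exons of equal length. In sheep no reciprocal match was found, and ENSOARG00020011920 (chromosome 14, 41856032 to 41862294, minus strand, Oar_rambouillet_v1.0) was taken as the gene of closest exon structure between the same flanking shared genes, with 3 internal exons matched. By exon lengths alone it ranked 7th among the sheep genes scored, and its own best match in cattle was another gene. Its choice thus rests on its position. Exons of 99, 72, and 102 nt stood in the same order in the 3 species, with gaps of 278 nt and 553 to 556 nt between them. The models differed at their ends and in 2 places within the sheep model. The last exon was annotated as 901 nt in cattle and as 779 nt in both sheep and goats. In sheep, the exons that correspond to those of 74 and 75 nt in cattle and goats were each split by a gap of 1 nt, into 73 and 4 nt and into 81 and 5 nt. Whether these splits cost counts in sheep was not tested. Summed over exons, the models came to 1340 nt (cattle), 1239 nt (sheep), and 1208 nt (goats).

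**Figure D1:**
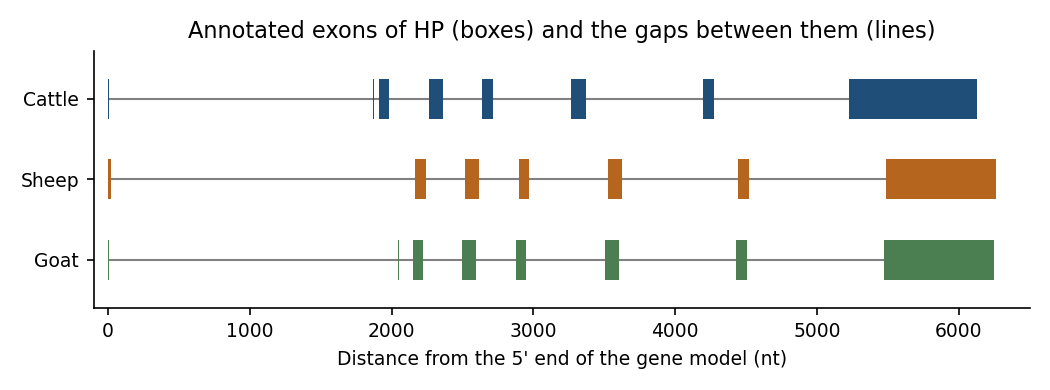
Annotated HP exons (boxes) and the gaps between them (lines) in each species, to scale in nt from the 5′ end of the gene model. The run of 99, 72, and 102 nt exons lines up in all 3, and the last exon is longest in cattle (901 nt).

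Part of the goat model lies under another gene. The gene on the plus strand that meets the 3′ end of HP, ENSCHIG00000001849, overlapped its exons by 87 nt (7.2% of the HP exon length), and since the strand setting of the counting is not given in the sources used here, reads in these bases cannot be assigned with certainty. In CPM, counts scaled to a common library total, this neighbor was at 46 in goat A, 28.7 in goat B, and 58.9 in goat C, an order other than that of HP given next. In cattle and sheep no exon of another gene overlapped HP, and the nearest plus-strand gene on that side ended 2061 nt and 3540 nt away. It was at 47.8, 47.3, and 83 CPM in cattle A, B, and C, and at 22.4, 15.7, and 23.6 in the sheep, highest in C in both as HP was.

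HP was among the most abundant transcripts in cattle liver, intermediate in goats, and low in sheep. In cattle, 984394 counts in library A, 981542 in B, and 1710520 in C fell on HP, equal to 20509.7, 17414, and 27993 CPM. In goats there were 232104, 50382, and 8858 counts, equal to 6511, 2198, and 537 CPM. In sheep there were 3783, 1416, and 13875 counts, equal to 96.2, 34.7, and 489.7 CPM. Every cattle library was above every goat library, and every goat library was above every sheep library on this scale, although goat C and sheep C lay close together. Mean levels were 21972 ± 5439 CPM in cattle, 3082 ± 3084 in goats, and 207 ± 247 in sheep (SD, n = 3 each), so that in goats and in sheep the SD was at least as large as the mean.

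**Figure D2:**
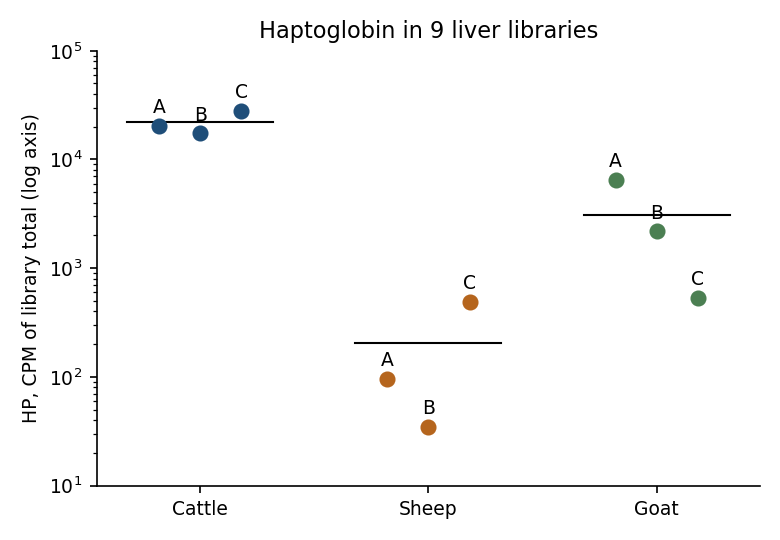
HP in CPM of the library total (log axis) in the livers of 3 cattle, 3 sheep, and 3 goats. Points are libraries A, B, and C, and horizontal lines are the means of 21972, 207, and 3082 CPM, and the cattle points sit close together while the sheep and goat points spread more than 10-fold.

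HP alone took 2.05%, 1.74%, and 2.80% of all counts on genes in cattle A, B, and C. Its share was 0.651%, 0.22%, and 0.0537% in goats, and 0.00962%, 0.00347%, and 0.049% in sheep. Counting error was small beside these differences even at the lowest value, with a 95% Wilson interval of 33 to 36.6 CPM in sheep B, which covers counting error only. Ranked by CPM per kb of annotated exon, HP was the 6th, 6th, and 4th most abundant gene in cattle A, B, and C, the 16th, 52nd, and 244th in goats, and the 1136th, 2574th, and 254th in sheep. On the same per-length scale, the mean level was 16397 ± 4059 CPM per kb in cattle, 2551 ± 2553 in goats, and 167 ± 199 in sheep (SD, n = 3 each). In such bulk tissue, fewer hepatocytes and less HP RNA per hepatocyte cannot be told apart.

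To compare species, HP was fitted with the other genes shared by the 3 species, 7215 after the filter on low values, in 1 fit over all 9 libraries. Each gene had 1 estimate of spread for all species, so the SE, interval, and p of each contrast use libraries outside it. HP varied less in cattle than in sheep and goats, which this fit does not allow for. HP was 124-fold higher in cattle than in sheep, a log2 fold change of 6.95 ± 1.23 (SE, 95% interval 4.26 to 9.64, adjusted p = 0.00087 by edgeR's quasi-likelihood test with Benjamini-Hochberg adjustment). In this contrast, 22.7% of the genes tested were called higher in cattle, and in 33.4% every cattle library was above every sheep library, as it was for HP. A change larger than that of HP in either direction was found for 75 genes, 1.04% of those tested, and the median absolute log2 fold change was 0.87. Each of the 17 refits kept this call, with adjusted p at most 0.0059 by edgeR or DESeq2. All of them used the same sheep gene and its counts, so they do not test that choice. The size rested on sheep C more than on any other library: without it the log2 fold change was 8.49.

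Between cattle and goats, HP was 6.81-fold higher in cattle, a log2 fold change of 2.77 ± 1.01 (SE, 95% interval 0.55 to 4.98, adjusted p = 0.038 by the same edgeR test), where 24.4% of genes were called higher in cattle. In 31.5% of genes, as in HP, every cattle library was above every goat library. The size was less exceptional than against sheep, with a larger change in 684 genes (9.48%). The call did not hold without cattle A (adjusted p = 0.059 by edgeR), cattle B (0.054), cattle C (0.083), goat B (0.12), or goat C (0.059), while the log2 fold change stayed between 2.26 and 4.06 in the 9 fits that left out 1 library, the highest without goat A.

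Between sheep and goats, HP was lower in sheep, with a log2 fold change of -4.19 ± 1.08 (SE, 95% interval -6.55 to -1.83, adjusted p = 0.015 by edgeR's quasi-likelihood test), or 18.2-fold. The interval and p rest on a spread shared with cattle. The SD of log2(CPM + 0.5) was 0.40 in cattle, against 1.76 in sheep and 2.13 in goats, and a fit without cattle was not run. In this contrast, 13.7% of genes were called lower in sheep, and 127 genes (1.76%) had a larger change in either direction. The separation of libraries depended on the scale. CPM of the library total put goat C (537) above sheep C (489.7), whereas TMM scaling over the shared genes put it below, at 719 against 809. The call did not hold without sheep A (adjusted p = 0.067 by edgeR) or sheep B (0.053). The log2 fold change was -2.89 without goat A (adjusted p = 0.0496 by edgeR) and -5.72 without sheep C.

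**Figure D3:**
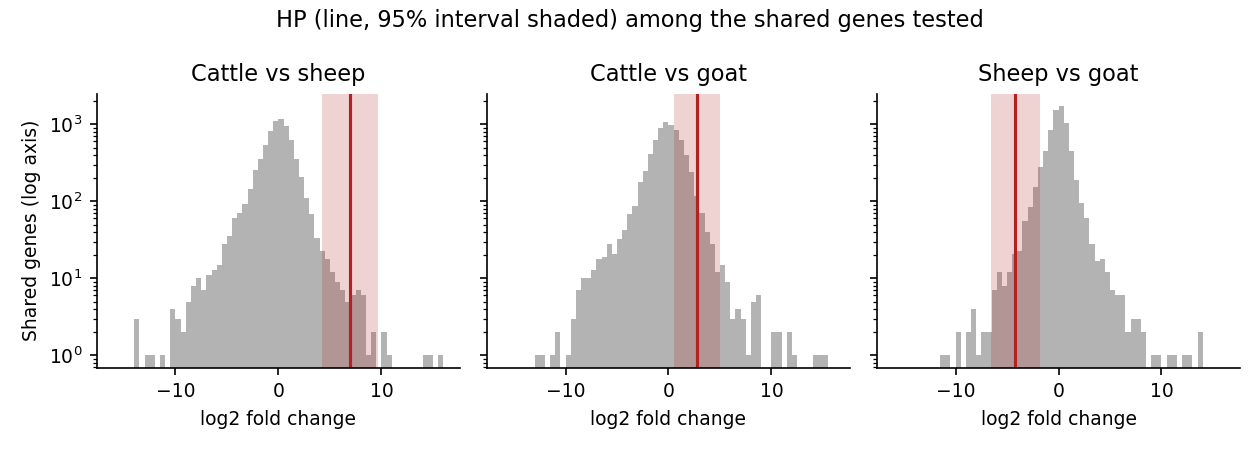
Log2 fold changes of the 7215 shared genes tested (grey histogram, log count axis) in the 3 species contrasts, with HP as a red line and its 95% interval shaded. HP lies far in the tail between cattle and sheep (6.95), nearer the bulk between cattle and goats (2.77), and in the lower tail between sheep and goats (-4.19).

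Within species, the animals differed less in cattle than in sheep and goats. For this comparison CPM was scaled by TMM within each species, and the genes with a mean of at least 10 CPM served as background. In cattle, HP was at 21181 CPM in A, 16507 in B, and 28597 in C, with the highest 1.73 times the lowest. In sheep, it was at 91.8, 39.9, and 446, a range of 11.2-fold. In goats, it was at 7539, 2505, and 407, a range of 18.5-fold. Without sheep C the sheep range was 2.3-fold, and without sheep B it was 4.86-fold. Without goat C the goat range was 3.01-fold, and without goat A it was 6.48-fold. The median gene ranged 1.28-fold in cattle, 1.48-fold in sheep, and 1.78-fold in goats.

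Set beside the other genes, the HP spread was moderate in cattle and near the top in the other two species. The SD of log2(CPM + 0.5) was 0.40 in cattle, and 16.3% of 7409 genes had a larger one. It was 1.76 in sheep, where 35 of 7609 genes (0.46%) had a larger one, and 2.13 in goats, where 24 of 7895 genes (0.304%) did. Abundant genes rarely varied this much: of the 37 goat genes at or above the mean CPM of HP, itself included, 0 had a larger SD, and of the 677 such sheep genes 6 had. In cattle only 6 genes, HP included, were at or above the mean of HP, and 0 of them had a larger SD.

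**Figure D4:**
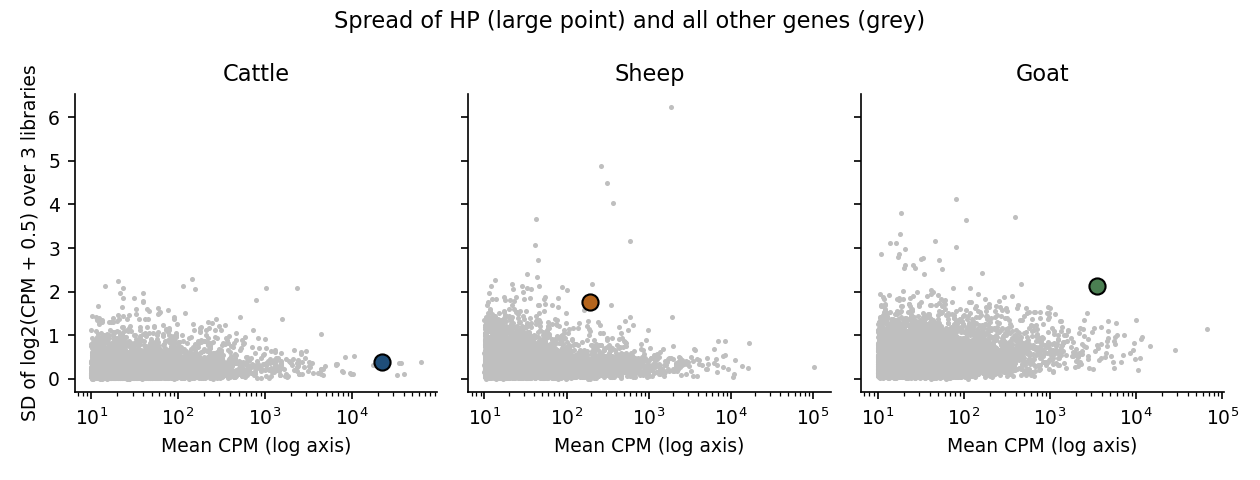
SD of log2(CPM + 0.5) over the 3 libraries of a species against mean CPM (log axis) for all genes with a mean of at least 10 CPM, with HP as the large point. HP in cattle (SD 0.40) sits within the range of all genes, though 0 of the 6 genes at or above its mean, HP included, have a larger SD. It sits above most genes of its level in sheep (1.76) and goats (2.13).

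Among the sheep, HP stood out upward in sheep C. It was more than 4-fold above both other sheep, a position shared by 13 of 7609 genes there (0.171%), HP included. Against the mean of the other two sheep the log2 difference of HP was 2.75, and only 8 genes, HP included, were as high or higher. Across genes, sheep C was the highest of the 3 sheep for 24.9% after TMM scaling and for 42.4% in CPM of the library total, the lowest share of the 3 libraries on the first scale and the highest on the second.

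In goats HP departed downward in goat C and upward in goat A. In goat C it was more than 4-fold below both other goats, as were 84 of 7895 genes (1.06%). Its log2 difference from the mean of the others was -3.63, and 0.165% of genes were as low or lower there. Goat C was also the lowest library for 46.4% of genes. In CPM of the library total, 25 genes (0.317%) were 4-fold below both other goats there, 84 were 4-fold above both, and goat C was the lowest for 22.1%. Goat A was 2.37 above the mean of the other two on the log2 scale, with 16 genes (0.203%), HP included, as high or higher, but less than 4-fold above goat B. In CPM of the library total, 0.127% of genes were as high or higher in goat A, and 0.165% as low or lower in goat C. In cattle, library C was the highest for HP, 0.60 above the mean of the others on the log2 scale, and 3.81% of genes were as high or higher there. Cattle B departed about as far downward, at -0.59, and 2.04% of genes were as low or lower there.

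Other properties of the libraries varied as well, some of them with HP in 1 species and against it in another. In goats, the total counts were 35647106, 22921767, and 16507706 in A, B, and C, in the same order as HP. Mitochondrial genes took 1.09%, 1.89%, and 3.70% of the counts, in the opposite order, and the 100 most abundant genes took 37.8% in goat C against 46.8% in A and 46.9% in B. In sheep, the library with the most HP, sheep C, had the smallest total, 28332266, unlike in goats. Its mitochondrial share was the lowest of the sheep, 1.99% against 2.37% in B and 2.99% in A, and cattle C likewise had the most HP and the lowest share of the cattle, 9.61% against 10.8% in both others. The library with the most HP thus had the lowest mitochondrial share in each species, while sheep A and B were not in the order opposite to HP, and neither were cattle A and B. The part of these properties in the HP levels was not tested. Whether sheep C, or any other animal, was inflamed was not tested either, because the other acute phase genes and the markers of liver cell types need names that could not be attached to the identifiers of the files.

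The genes closest to HP were sought among the 4577 other shared genes with a mean of at least 10 CPM in every species, on the scale of the shared genes. After the species mean of log2(CPM + 0.5) was taken out, the highest Pearson correlations with HP over the 9 libraries were those of ENSBTAG00000011640 (chromosome 3, 89608083 to 89696904; r = 0.968), ENSBTAG00000002189 (chromosome 25, 4088137 to 4103061; r = 0.964), and ENSBTAG00000017868 (chromosome 19, 10531071 to 10582764; r = 0.95). These values are a description of libraries that share depth and composition, and the 6 sheep and goat libraries carried 97.7% of the HP variation that entered them. The correlation was above 0.9 for 38 genes and below -0.9 for 34.

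The closest of them, ENSBTAG00000011640, was at 61.2, 34.6, and 99 CPM in sheep A, B, and C, and at 115, 54.4, and 30.5 in the goats. It ranked the sheep and the goats as HP did, over a far smaller range than HP. In cattle it was at 190, 192, and 235 CPM, again highest in C. ENSBTAG00000002189 was at 32.4, 29.5, and 42.9 in the sheep and at 31.6, 24.9, and 15 in the goats, with 25.6, 21.7, and 29.1 in the cattle. It shared the order within each species but not the low level of HP in sheep. Both genes were chosen for following HP within species, so the shared order is no separate result.

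**Figure D5:**
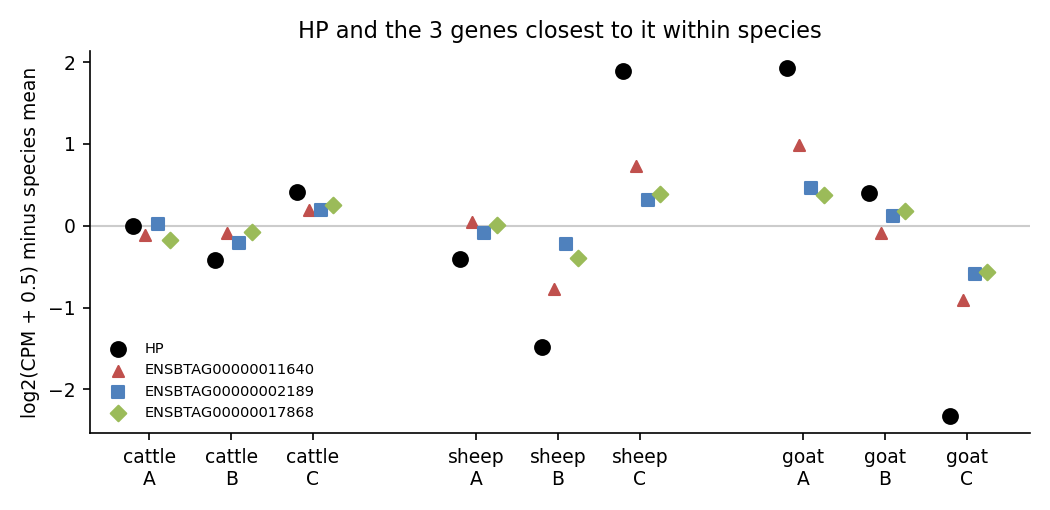
Difference of log2(CPM + 0.5) from the species mean in each of the 9 libraries for HP (black) and the 3 genes with the highest correlation to it within species. All 4 are highest in sheep C and goat A and lowest in sheep B and goat C, and HP departs furthest.

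By Spearman's rho over the 9 libraries with species differences left in, ENSBTAG00000020451 (chromosome 3, 83117927 to 83129455) and ENSBTAG00000020482 (chromosome 9, 49096929 to 49429819) were closest to HP, each with rho = 0.983. ENSBTAG00000013330 (chromosome 13, 60581480 to 60600669) followed with rho = 0.967. These are the highest of many, as rho was above 0.9 for 71 of the 4577 genes compared. ENSBTAG00000020451 was at 86.4, 85.6, and 135 CPM in cattle, 72, 68.2, and 61.5 in goats, and 41.9, 36.7, and 53.1 in sheep. It followed the order cattle, goats, and sheep with a SD of log2(CPM + 0.5) of 0.11 in goats, against 2.13 for HP within goats.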

How the data were processed

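The authors trimmed the reads with Trimmomatic 0.39, mapped them with STAR 2.7.6 to the Ensembl genome of each species, and deposited raw counts per gene from featureCounts, with the exon positions and exon length of each gene. The strand and read-pair settings are not given in the sources used here. Totals ran from 16507706 to 61105490 counts, and 3 counts equal 0.0491 to 0.182 CPM. Counts of replicates differed by 107 to 457 in chi-square per degree of freedom, far above sampling noise.

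Shared genes were reciprocal best matches by ordered internal exon lengths, with a score 1.05 times the next best and 2 or more internal exons and 50% of them matched. Each also needed support from 2 or more further pairs that lay among the 10 nearest on each side in both genomes. Shared genes numbered 8097, or 8098 with HP. On a damaged copy of part of the cattle annotation, with 2583 genes left, 80.6% were recovered with 0 wrong pairs. Each gene of the copy kept its place, so this does not measure errors between species. A CPM above 1 in at least 2 libraries kept 7215. Species were compared with TMM and edgeR 4.0.16 (quasi-likelihood test, R 4.3.3), all 9 libraries in 1 fit, robust dispersion, and Benjamini-Hochberg adjustment at 0.05. The SE is the log2 fold change divided by the root of F. DESeq2 1.42.0 was an alternative, beside other scalings, filters, a length offset, a stricter match, the replicate block, and leaving out each library. Tested on simulated data for cattle against sheep, with 7087 genes of which 200 were changed 4-fold, edgeR called 177 of these and 10 others. In the real libraries 3453 of 7215 genes were called in this contrast. The rate of wrong calls at so large a share was not tested.

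Of 27607 cattle identifiers, 0 matched the RefSeq table, so HP is named by its given identifier, the lists of acute phase genes and cell markers were not run, and no sequence is shown. The genes named are HP and, among shared genes with at least 10 CPM in every species, the 3 closest by centred Pearson correlation and the 3 closest by Spearman's rho. HP, the lists, and the rules were chosen with earlier results of these data known.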

Additional observations from a re-analysis of the deposited data

How the results depend on the processing

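HP kept its direction in all 51 refits of the 3 species contrasts and its side of the threshold in 44. The 7 others all left out 1 library, and the cause was not tested. The log2 fold change ran from 6.48 to 8.49 between cattle and sheep, from 2.26 to 4.06 between cattle and goats, and from -5.72 to -2.89 between sheep and goats over the fits that left out 1 library. With an offset of annotated exon length it was 6.84, 2.62, and -4.22, and DESeq2 gave 6.98, 2.77, and -4.21.

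Genes that differed numbered 3453 between cattle and sheep (2698 to 3808 when 1 library was left out), 3757 between cattle and goats (2959 to 3938), and 1809 between sheep and goats (1194 to 2121, the lowest without goat replicate B). Scaling to library totals without TMM gave 1201 genes between sheep and goats, and 1174 when mitochondrial genes were also left out of the totals.

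The highest over the lowest HP level moved most without replicate C, to 1.28 in cattle, 2.3 in sheep, and 3.01 in goats, and otherwise ran up to 1.75, 11.04, and 18.5 with 1 library left out. In CPM of the library total it was 1.61, 14.1, and 12.1. The share of genes highest in a library depended on the scaling, with goat C at 36.5% after TMM and 62.3% in CPM of the library total.

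With the replicate letter as a block, HP gave 7.28, 2.68, and -4.59 for the 3 contrasts, and no call changed. The block left 3423, 3669, and 1716 genes. Libraries of 1 letter come from different animals, so the letters do not pair animals. The correlation of deviations between libraries of 1 letter ran from -0.183 to 0.291. Whether a letter also marks a shared batch was not tested. At the smallest total, 3 counts equal 0.182 CPM, far below every HP value.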
